A study of Mus musculus with 2 samples.

Results

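The genes described are 9 secreted signals: the colony-stimulating factors Csf1, Csf2 and Csf3, the CXC chemokines Cxcl1, Cxcl2 and Cxcl5, the CC chemokines Ccl2 and Ccl20, and the interleukin Il1a. They were taken by symbol from the 55361 features of both count matrices, and all 9 were found. The 2 single-cell RNA libraries (10x Genomics) of mouse pancreatic ductal adenocarcinoma that were compared are labelled whole tumour and sorted for high CD9 (CD9hi). Both came from the KPFRR model. In it Pdx1-Flp, a Flp recombinase under the pancreatic Pdx1 promoter, deletes Trp53 (Trp53frt/frt), and the line also carries the alleles Rosa26FSF-creER and Rosa26mTmG, the latter a membrane Tomato and GFP reporter. Tumours were dissociated with collagenase V and TrypLE, and GFP or surface CD9 was used to sort the live cells. The labels give neither the animals' age nor the number of animals in each library. With 1 library a group there is no replicate check and no test, and every interval given is a 95% interval that covers counting error only.

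Colony-stimulating factors act on myeloid cells: CSF1 sustains macrophages, GM-CSF (the product of Csf2) acts on macrophages, dendritic cells and granulocytes, and G-CSF (Csf3) drives neutrophil production. CXCL1, CXCL2 and CXCL5 attract neutrophils through CXCR2, CCL2 attracts monocytes through CCR2, and CCL20 attracts CCR6-bearing lymphocytes and dendritic cells. IL-1 alpha is an alarmin that signals through IL1R1 and IL1RAP to NF-kB, a transcription factor that in turn induces many cytokine genes. In pancreatic cancer, tumour cells are a known source of GM-CSF and of CXC chemokines.

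The values below are from 2537 whole-tumour and 5062 CD9hi cells in which Ptprc, the pan-leukocyte gene, had 0 UMIs (unique molecular identifiers, each counting 1 captured transcript). These held 46093573 and 119049556 UMIs, with a median of 17704 and 21809.5 UMIs a cell, and 2 cell barcodes occurred in both libraries. Levels are CPM, the UMIs of a gene per 1e+06 UMIs summed over a group of cells. The 3′ assay counts a transcript once whatever its length, so CPM was not divided by gene length. Epithelial genes were present in both libraries (whole tumour and CD9hi had Epcam at 1927 and 1055 CPM and Krt8 at 2845 and 1765 CPM), while Vim was at 1143 and 4871 CPM. GFP had 0 UMIs in both libraries, so the sort on GFP could not be checked on its own transcript. Acinar digestive genes summed to 51962 CPM in the former and 179 CPM in the latter library, and 303 whole-tumour cells took at least 10% of their UMIs from them.

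Csf2, Cxcl1 and Cxcl2 carry an AU-rich nonamer in their 3′ untranslated regions. By sequences of this class short-lived cytokine messages are bound by decay proteins such as Zfp36. The nonamer TTATTTATT was searched on the transcript strand in the longest annotated 3′ untranslated region of each gene (GENCODE M21, GRCm38). It occurred in 3 of the 9 genes, with 4 copies in Csf2, 2 in Cxcl1 and 4 in Cxcl2, and overlapping copies were counted. Over all 21020 coding genes searched, 7.66% held at least 1 copy and 1.88% at least 2. The shorter AU-rich core ATTTA occurred in each of the 9 genes. Its copies were 11 in Cxcl2, 9 in Csf2, 9 in Ccl20, 7 in Cxcl1, 6 in Csf3, 5 in Cxcl5, 4 in Csf1, 3 in Il1a and 1 in Ccl2. The share of all genes with ATTTA was not counted. The regions are 317 bases long in Csf2, 592 in Cxcl1 and 1494 in Cxcl2, against a median of 961 over all genes. The windows below, 30 bases each and 5′ to 3′ with the nonamers in capitals, hold all 4 copies of Csf2, 1 of the 2 of Cxcl1 and 2 of the 4 of Cxcl2: Csf2 at chr11:54247323-54247352 on the minus strand, Cxcl1 at chr5:90892614-90892643 on the plus strand, and Cxcl2 at chr5:90905325-90905354 on the plus strand (GRCm38).
Csf2: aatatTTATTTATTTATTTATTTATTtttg
Cxcl1: tatttatgtatTTATTTATTccacaaagtg
Cxcl2: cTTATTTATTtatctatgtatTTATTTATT
The 4 Csf2 nonamers overlap in a single run, whereas the 2 shown for Cxcl2 lie apart.

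Promoters of 6 of the 9 genes were matched by symbol in RefSeq (GRCm38.p6), each from 250 bases before to 50 bases after the gene start. Those of Csf3, Cxcl5 and Ccl2 were not matched and so were not searched. An NF-kB motif (GGGA, any 2 bases, then TTCC) and an AP-1 motif (TGANTCA) were searched on both strands. The NF-kB motif was found in Csf1, Cxcl1 and Cxcl2, and the AP-1 motif in Il1a. Among all 32851 promoters of this length, 1.47% held the NF-kB motif and 7.81% the AP-1 motif. The 4 promoters with a match are shown 5′ to 3′ on the gene's strand, with matches in capitals: Csf1 at chr3:107760420-107760719 (minus), Cxcl1 at chr5:90890995-90891294 (plus), Cxcl2 at chr5:90903649-90903948 (plus) and Il1a at chr2:129309923-129310222 (minus).
Csf1: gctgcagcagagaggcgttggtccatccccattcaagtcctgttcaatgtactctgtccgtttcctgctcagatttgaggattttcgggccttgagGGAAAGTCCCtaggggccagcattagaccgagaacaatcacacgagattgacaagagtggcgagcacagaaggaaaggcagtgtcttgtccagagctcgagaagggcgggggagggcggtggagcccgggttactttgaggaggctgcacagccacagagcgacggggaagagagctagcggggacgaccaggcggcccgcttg
Cxcl1: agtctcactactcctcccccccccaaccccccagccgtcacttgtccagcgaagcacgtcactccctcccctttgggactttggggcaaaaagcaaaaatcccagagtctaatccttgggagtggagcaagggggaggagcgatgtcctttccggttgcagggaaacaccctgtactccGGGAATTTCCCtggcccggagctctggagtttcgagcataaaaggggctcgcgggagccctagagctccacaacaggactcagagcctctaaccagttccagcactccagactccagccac
Cxcl2: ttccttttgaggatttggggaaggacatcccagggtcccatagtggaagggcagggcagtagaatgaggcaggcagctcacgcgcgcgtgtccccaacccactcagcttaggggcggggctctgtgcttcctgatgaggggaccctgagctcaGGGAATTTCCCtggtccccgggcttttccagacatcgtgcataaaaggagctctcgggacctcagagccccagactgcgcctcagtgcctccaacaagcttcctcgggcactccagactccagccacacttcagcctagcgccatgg
Il1a: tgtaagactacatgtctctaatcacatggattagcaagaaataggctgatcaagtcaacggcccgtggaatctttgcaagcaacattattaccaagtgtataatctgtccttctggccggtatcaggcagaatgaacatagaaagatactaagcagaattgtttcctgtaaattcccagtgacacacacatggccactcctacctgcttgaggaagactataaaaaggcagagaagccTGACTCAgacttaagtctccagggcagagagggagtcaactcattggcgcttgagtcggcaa
In Cxcl1 and Cxcl2 the motif matched on both strands at overlapping positions, between 71 and 61 bases before the start in Cxcl1 and between 97 and 87 bases before it in Cxcl2. A match is a description of the letters and does not show binding.

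Csf2 had the highest level of the 9 genes in both libraries, and Cxcl5 and Ccl2 differed by at least 2-fold between them. In whole tumour the order was Csf2 at 324 CPM, Cxcl1 at 154, Cxcl5 at 151, Cxcl2 at 135, Ccl2 at 27.6, Il1a at 26.3, Csf3 at 11.5, Ccl20 at 8.22 and Csf1 at 6.23 CPM. The intervals of Cxcl1 (151 to 158 CPM) and Cxcl5 (148 to 155 CPM) overlapped, as did those of Ccl2 and Il1a. In CD9hi the order was Csf2 at 505 CPM, Cxcl2 at 164, Cxcl1 at 139, Ccl2 at 73.2, Il1a at 44.6, Cxcl5 at 12.2, Csf1 at 10.1, Ccl20 at 9.34 and Csf3 at 6.83 CPM. Cxcl5 therefore stood next to Cxcl1 in whole tumour and below Il1a in CD9hi.

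A gene was called different where the ratio of its CPM values was at least 2-fold, among genes with a mean of at least 5 CPM over the groups compared. Between the libraries 1 of the 9 genes was called higher in CD9hi and 1 lower, where 6.32% of all 9746 measured genes were called higher and 7.36% lower. Cxcl5 was 12.4-fold lower in CD9hi (log2 ratio -3.64, interval -3.72 to -3.55). Ccl2 was 2.65-fold higher (log2 ratio 1.41, interval 1.32 to 1.49). The other 7 genes lay between a log2 ratio of -0.75 (Csf3) and 0.76 (Il1a), with Csf1 at 0.70, Csf2 at 0.64, Cxcl2 at 0.28, Ccl20 at 0.18 and Cxcl1 at -0.15. The median of the 9 log2 ratios was 0.28, and that of all measured genes was 0.13. The library ratios are plotted with their intervals.

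**Figure D1:**
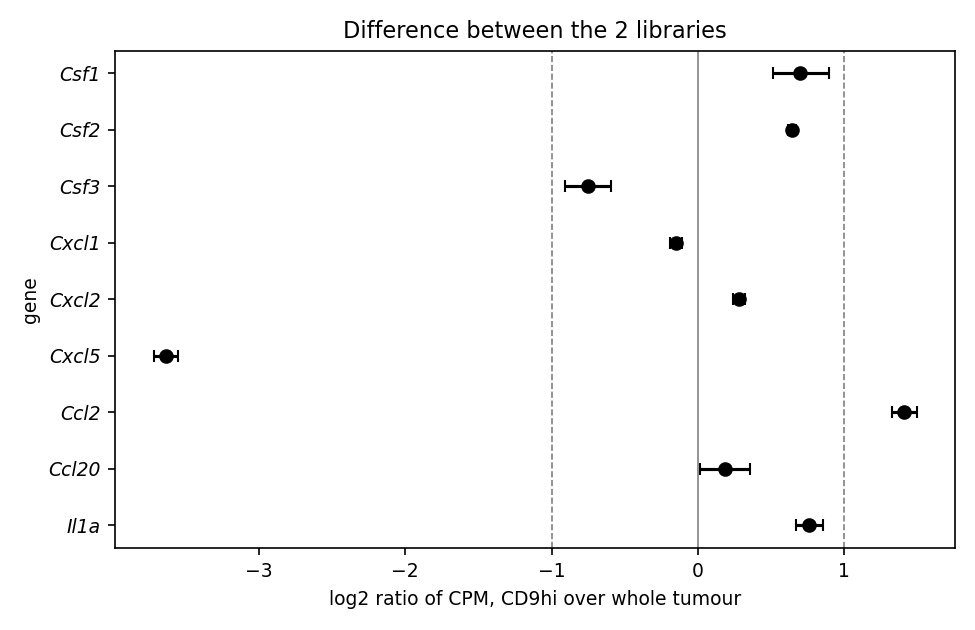
Log2 ratio of CPM, CD9hi over whole tumour, for each of the 9 genes, with the 95% counting interval as bars and dashed lines at 2-fold. Cxcl5 lies at -3.64 and Ccl2 at 1.41, and the other 7 genes lie between the dashed lines.

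To compare shares of cells at equal depth, each cell was thinned to 5000 UMIs, which left 2374 whole-tumour and 4952 CD9hi cells. Csf2 was then seen in 26.7% of whole-tumour and 46.0% of CD9hi cells (33.3% and 56.4% without thinning). Cxcl1 was seen in 20.2% and 20.1% of cells, Cxcl2 in 7.62% and 12.2%, and Cxcl5 in 12.0% and 1.74%. Ccl2 was seen in 2.74% and 8.02%, Il1a in 6.15% and 11.1%, Csf1 in 2.95% and 4.36%, Csf3 in 3.79% and 2.73%, and Ccl20 in 1.98% and 1.82%. The shares followed the direction of the CPM values except for Cxcl1 and Ccl20, for which no order was read. For comparison, the 289 thinned acinar-rich cells of whole tumour, some of which are also Tff1/Tff2-high, had Csf2 in 3.11%, Cxcl1 in 2.42%, Cxcl2 in 0.692%, and Csf1, Ccl2, Ccl20 and Il1a in 0.346% each. For Csf3 and Cxcl5 the number was 0 of these cells, for which a limit of 3 cells is 1.04% and the upper Clopper-Pearson bound is 1.27%.

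The transcripts of most of these genes sat in few cells. The 5% of whole-tumour cells with the most Cxcl2 UMIs held 94.9% of them, those for Cxcl5 85.3%, for Csf3 83.6%, for Il1a 81.9%, for Csf1 76.7%, for Cxcl1 63.4% and for Csf2 56.1%. All Ccl2 UMIs came from 109 cells and all Ccl20 UMIs from 97. Among 2815 genes compared in whole tumour the median share was 21.0%, and 0.497% of them were more concentrated than Cxcl2. The median of these genes in CD9hi was 19.6%. Of the 9 genes only Csf2, Cxcl1, Cxcl2, Cxcl5 and Ccl2 were set against them. The shares of Csf1, Csf3, Ccl20 and Il1a have no such background. In CD9hi the corresponding shares were 83.9% for Cxcl2, 80.7% for Csf3, 66.9% for Il1a, 64.3% for Csf1, 61.6% for Cxcl1 and 35.8% for Csf2. Csf2 had the lowest share of the 9 genes in either library and also the most UMIs, and such shares rise where a gene has few UMIs. Ccl2 reached 89.7% in CD9hi, and all Cxcl5 UMIs there came from 238 cells. A single cell held up to 493 UMIs of Cxcl2, 470 of Csf2 and 405 of Cxcl1 in CD9hi, and up to 388 UMIs of Cxcl5 in whole tumour.

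**Figure D2:**
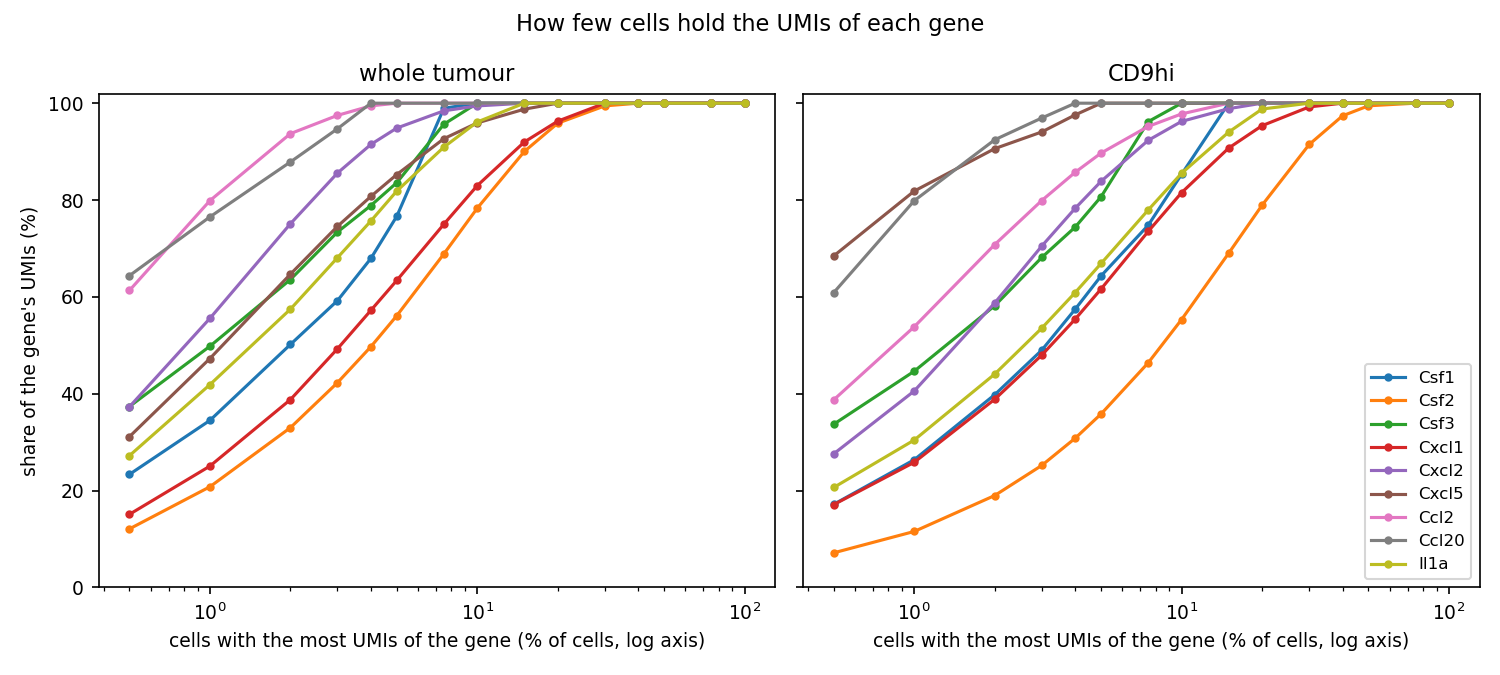
Share of each gene's UMIs (vertical axis, %) held by the cells with the most UMIs of that gene (horizontal axis, % of cells, log axis), in whole tumour (left) and CD9hi (right). At 5% of cells Cxcl2 stands at 94.9% and 83.9%, and Csf2 is the lowest curve in both libraries at 56.1% and 35.8%.

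Several genes were found in the same cells more often than across all cells. After thinning, 48.9% of whole-tumour and 37.0% of CD9hi cells had none of the 9 genes, and 2.82% and 4.34% had at least 4. Of 480 whole-tumour cells with Cxcl1, 24.4% also had Cxcl2 (interval 20.6 to 28.5%), against 7.62% of all cells. In CD9hi, 32.6% of 997 cells with Cxcl1 had Cxcl2, against 12.2% of all cells. Cxcl2 was also seen in 36.9% of the 65 whole-tumour cells with Ccl2 (25.3 to 49.8%) and in 23.7% of the 397 CD9hi cells with Ccl2. Il1a was seen in 34.4% of the 90 CD9hi cells with Ccl20, against 11.1% of all. In whole tumour it was seen in 6.38% of the 47 cells with Ccl20, close to the 6.15% of all cells. Csf2 and Cxcl5 went the other way in whole tumour: 5.37% of 633 cells with Csf2 had Cxcl5, against 12.0% of all cells. In CD9hi Cxcl5 was seen in 1.89% of cells with Csf2 and 1.74% of all cells, a difference within the counting interval.

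Cells were then grouped by marker genes. Tff1/Tff2-high cells carry trefoil factors of gastric-type, classical epithelium (at least 1095 CPM), Vim-high cells at least 6918 CPM of the mesenchymal filament gene Vim, and Tnfaip6-high cells at least 122 CPM of the matrix-binding Tnfaip6. These limits are the 80th percentile of the library in which it was higher. That percentile was 0 for Krt17, a basal keratin, so Krt17-high means any Krt17 UMI, and Prrx1-positive means any UMI of the mesenchymal factor Prrx1. The classes held 508, 368, 70, 140 and 6 whole-tumour cells and 16, 277, 1013, 1013 and 1097 CD9hi cells in the order Tff1/Tff2-high, Krt17-high, Vim-high, Tnfaip6-high and Prrx1-positive. The classes overlap (375 CD9hi cells were both Tnfaip6-high and Vim-high), and groups under 50 cells were not compared. In an alternative setting used below, cells with other-type markers were left out. These had at least 3 UMIs from any of the macrophage, neutrophil, lymphocyte, fibroblast or endothelial marker lists. In that setting acinar-rich cells and cells with at least 5% of their UMIs from islet genes were left out with them. Of 35 measured pairs of a gene and a class, 8 were called higher and 11 lower than the other cells in whole tumour, and 1 higher and 8 lower in CD9hi. Of the 11 lower pairs, 6 are in the Tff1/Tff2-high class with acinar-rich cells left in, where 19.8% of all genes were lower. These pooled counts have no single share of all genes beside them, and the shares are given class by class below.

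The label of the Tff1/Tff2-high class was only partly borne out. Of its 508 whole-tumour cells, 41.5% were acinar-rich, and acinar genes summed to 186359 CPM. The values given gene by gene below for this class therefore leave out the acinar-rich cells on both sides, which left 297 Tff1/Tff2-high cells, and the values with them follow. The profile correlations keep the acinar-rich cells, as do the counts under alternative settings unless the setting leaves them out. Without the acinar-rich cells 6 of the 9 genes were called lower and 0 higher, against 8.51% and 6.48% of all measured genes. With the acinar-rich cells 6 of 8 measured genes were lower, against 19.8% of all genes, and 0 were higher, against 3.63%. The 2 sets of 6 differ by Csf1, which was below the level measured with those cells, and by Ccl20, at a log2 ratio of -0.60 without them and -1.17 with them.

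**Figure D3:**
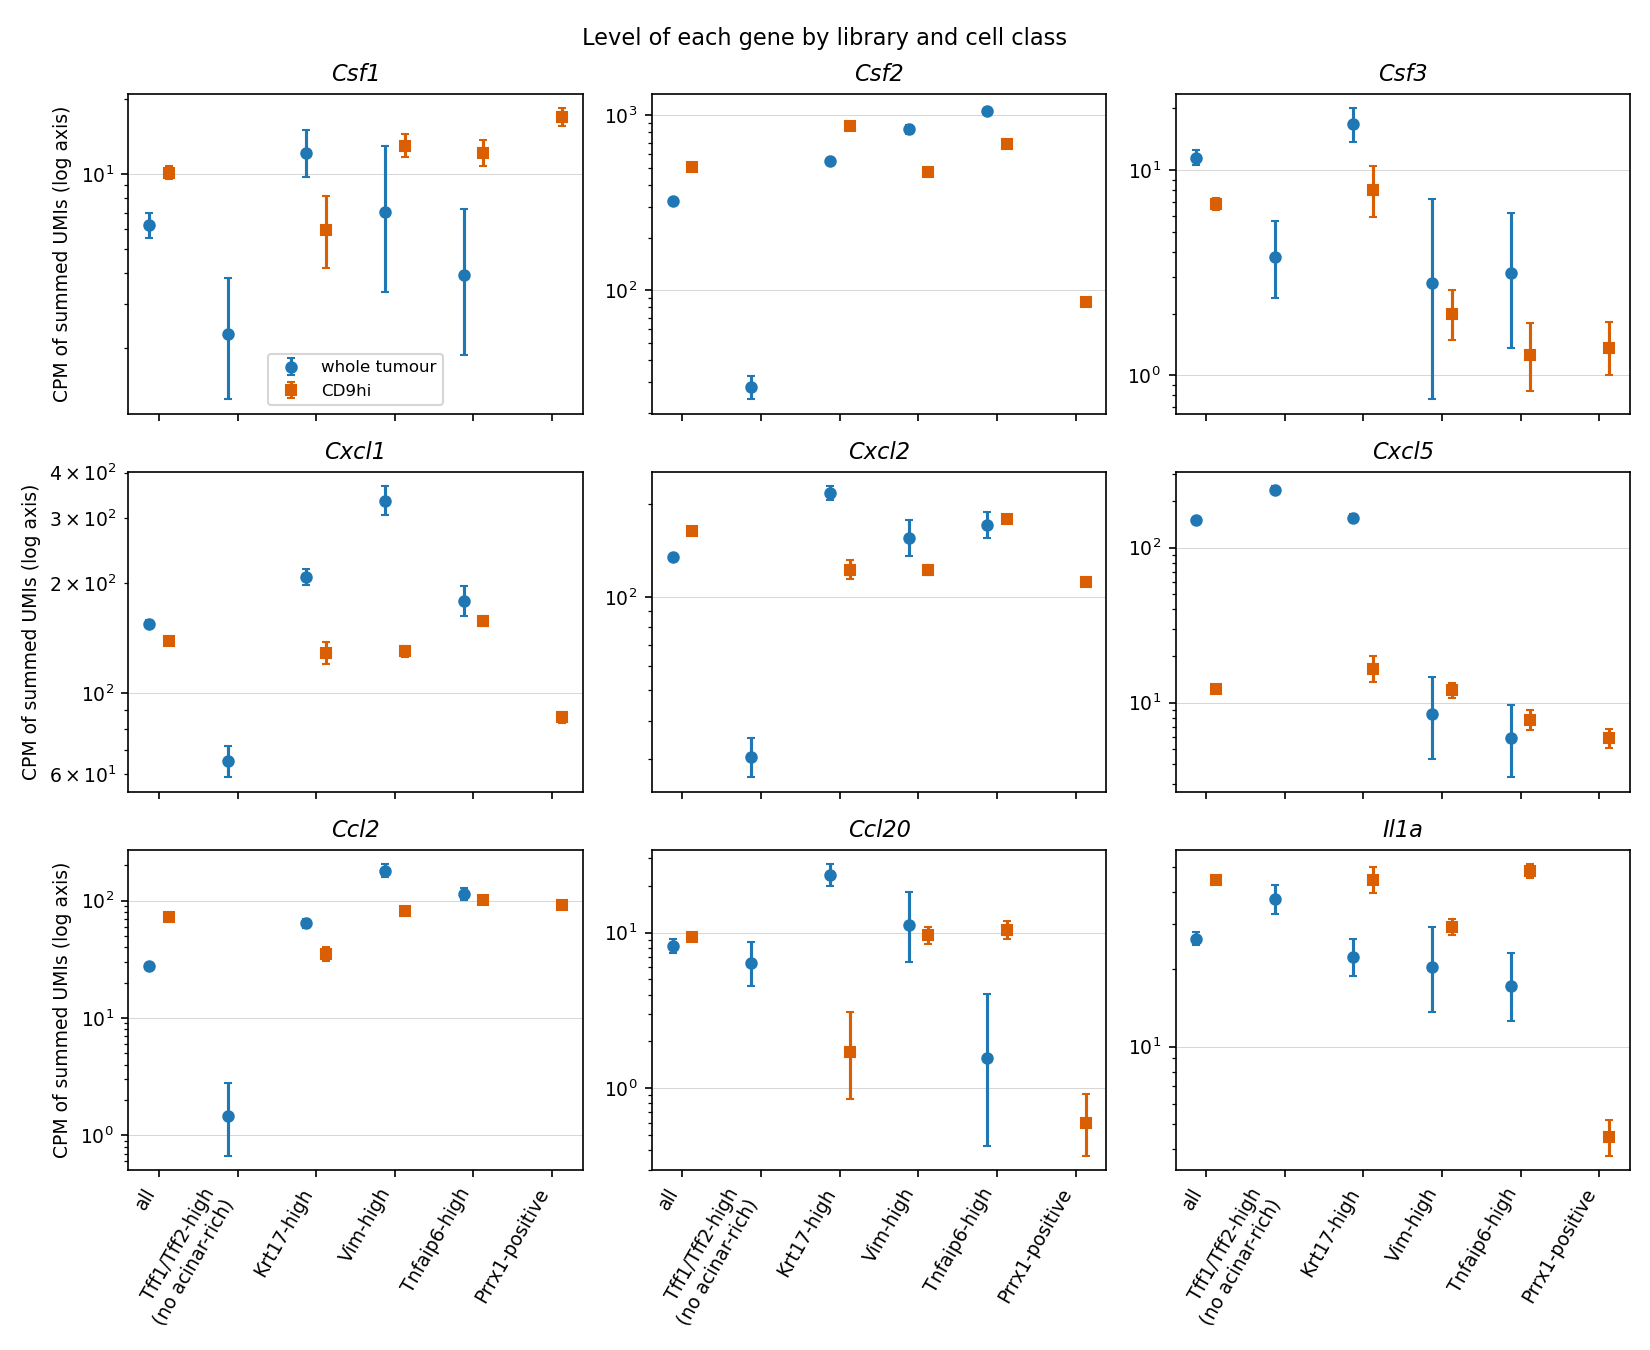
CPM of summed UMIs (log axis) for each gene in all cells and in each class of at least 50 cells, whole tumour as circles and CD9hi as squares, with 95% counting intervals as bars. Csf2, Cxcl2 and Ccl2 are lowest in Tff1/Tff2-high cells, Il1a and Ccl20 in Prrx1-positive cells, and Cxcl5 is at 156 CPM or more in 2 whole-tumour classes and at 16.6 CPM or less in every CD9hi class shown.

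Csf2, encoding GM-CSF, ranged the most widely of the colony-stimulating factors. In whole tumour it was at 28.0 CPM in Tff1/Tff2-high cells (22.1 CPM with acinar-rich cells), 552 CPM in Krt17-high, 833 CPM in Vim-high and 1061 CPM in Tnfaip6-high cells. The Tff1/Tff2-high cells were 15.3-fold below the 429 CPM of the other cells, Vim-high cells were 2.71-fold higher (308 CPM in the others) and Tnfaip6-high cells 3.78-fold higher (281 CPM). In CD9hi it was at 873 CPM in Krt17-high, 690 in Tnfaip6-high and 473 in Vim-high cells, none of them 2-fold from the rest. In Prrx1-positive CD9hi cells it was at 86.1 CPM against 681 CPM in the other cells, 7.91-fold lower (log2 ratio -2.98, interval -3.04 to -2.93). Within the Tnfaip6-high CD9hi cells the split was the same way: 836 CPM in the 855 cells with 0 Prrx1 UMIs and 140 CPM in the 158 with Prrx1.

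Csf1, the macrophage growth factor, showed a different pattern. In CD9hi it was at 17.0 CPM in Prrx1-positive cells and 7.27 CPM in the others, 2.33-fold higher, and this was the 1 higher call among the CD9hi pairs. Of all genes, 6.61% were higher and 7.59% lower in Prrx1-positive cells, and of the 9 genes 1 was higher and 5 were lower. In whole tumour Csf1 was at 12.2 CPM in Krt17-high cells against 5.20 CPM (log2 ratio 1.23, and 0.60 without cells with other-type markers), at 2.29 CPM in Tff1/Tff2-high cells against 7.78 CPM, at 7.03 CPM in Vim-high and at 3.92 CPM in Tnfaip6-high cells. Csf1 and Csf2 thus moved in opposite directions in the Prrx1-positive cells.

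Csf3, encoding G-CSF, was low in the Vim-high, Tnfaip6-high and Prrx1-positive classes. Its level was 2.81 CPM in Vim-high and 3.14 CPM in Tnfaip6-high whole-tumour cells, against 11.8 and 12.0 CPM in the others, but those values rest on 4 and 8 UMIs, and the Tnfaip6-high log2 ratio went from -1.85 to -0.27 after thinning. In CD9hi it was at 1.98 CPM in Vim-high cells against 8.20 CPM, at 1.37 CPM in Prrx1-positive cells against 9.12 CPM, and at 1.26 CPM in Tnfaip6-high cells against 8.17 CPM, the last below the level measured. The fold differences of the called CD9hi pairs were 4.10 and 6.61, and the Vim-high log2 ratio went from -2.04 to -0.85 in cells of exactly 1 class. In Krt17-high cells it was at 16.7 (whole tumour) and 7.97 CPM (CD9hi), both less than 2-fold above the rest. In Tff1/Tff2-high cells it was at 3.76 CPM against 14.7 CPM, and with acinar-rich cells the log2 ratio of -2.58 became -0.97 with the 60th percentile as the limit.

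Cxcl1 and Cxcl2, neighbouring genes for neutrophil attractants, were called in few classes. Cxcl1 was at 65.1 CPM in Tff1/Tff2-high, 208 in Krt17-high, 336 in Vim-high and 179 in Tnfaip6-high whole-tumour cells. Vim-high cells were 2.26-fold above the other cells, at 149 CPM, but 1 cell held 108 of their 478 UMIs, and without the top cell on each side the log2 ratio was 0.83 instead of 1.18. It was also under 2-fold after thinning (0.95), with the 60th percentile (0.94) and without acinar-rich cells (0.99). Cxcl2 was at 30.4, 217, 155 and 171 CPM in the same order, and 5.75-fold lower in Tff1/Tff2-high than in the other cells. In the CD9hi classes Cxcl1 lay between 85.9 CPM (Prrx1-positive) and 158 CPM (Tnfaip6-high), and Cxcl2 between 112 CPM (Prrx1-positive) and 179 CPM (Tnfaip6-high). Neither gene was called in any CD9hi class.

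Cxcl5, also a CXCR2 ligand, was lower in the Vim-high and Tnfaip6-high cells of whole tumour. There it was at 236 CPM in Tff1/Tff2-high cells, 156 in Krt17-high, 8.43 in Vim-high and 5.89 in Tnfaip6-high cells. The last 2 were 17.7-fold and 26.3-fold below the other cells. In the 16 CD9hi cells that were Tff1/Tff2-high it was at 239 CPM, with UMIs in 6 cells, too few to compare. The other CD9hi classes were at 16.6 CPM (Krt17-high), 12.0 (Vim-high, against 12.2 in the others), 7.76 (Tnfaip6-high, against 13.2) and 5.89 CPM (Prrx1-positive, 2.51-fold lower than the rest). The Prrx1-positive log2 ratio of -1.33 was -0.92 in cells of exactly 1 class. Within Krt17-high cells CD9hi was 9.37-fold below whole tumour. Of the 9 genes 4 were lower and 0 higher in CD9hi within that class, against 4.69% and 3.42% of all genes. The 127 whole-tumour cells with the most Cxcl5 had 2093 CPM of Epcam and 74.6 CPM of Vim, and their macrophage list summed to 429 CPM against 127 CPM in all cells, of which Cd14 made 114 CPM. Of these 127 cells 85.0% had other-type markers, against 27.6% of all whole-tumour cells. Leaving out cells with such markers therefore takes out most of the cells richest in Cxcl5. The setting without cells with other-type markers, Cd14 included, left out 1004 whole-tumour and 1004 CD9hi cells, acinar-rich and islet-gene-rich cells among them. In it the library log2 ratio of Cxcl5 was -2.18, and leaving out only cells with macrophage genes other than Cd14 it was -3.64.

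Ccl2, the monocyte attractant, was by CPM lowest in trefoil-high cells and highest in Vim-high cells of whole tumour. It was at 1.47 CPM in Tff1/Tff2-high cells against 36.7 CPM in the others, at 64.2 CPM in Krt17-high against 21.2 CPM, at 180 CPM in Vim-high against 22.7 CPM, and at 114 CPM in Tnfaip6-high against 22.6 CPM. The folds were 23.6 lower, 3.02 higher, 7.92 higher and 5.05 higher. Few cells carried these values: 1 cell held 150 UMIs in the Vim-high, Tnfaip6-high and Krt17-high classes alike, of 256, 290 and 438 UMIs. After thinning to 5000 UMIs, 2 of 64 Vim-high cells had Ccl2 (3.125%, interval 0.381 to 10.8%), against 2.74% of all whole-tumour cells. The share of Vim-high cells with Ccl2 was thus not clearly raised. In Krt17-high cells it was 5.88% (interval 3.68 to 8.85%). Without the top cell on each side the log2 ratios fell to 1.84, 1.44 and 1.17 from 2.99, 2.34 and 1.60. With the 90th percentile as the limit of the Krt17-high class its log2 ratio was 0.27 in whole tumour and -0.65 in CD9hi. In CD9hi it was at 35.0 CPM in Krt17-high cells, 2.15-fold below the other cells, and at 81.5, 101 and 91.8 CPM in Vim-high, Tnfaip6-high and Prrx1-positive cells, none 2-fold from the rest.

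Ccl20, the CCR6 ligand, was lowest in Prrx1-positive cells. It was at 0.598 CPM there (21 UMIs in 1097 cells) against 13.0 CPM in the other CD9hi cells, 21.3-fold lower (log2 ratio -4.41, interval -5.14 to -3.82). Other CD9hi classes were at 1.72 CPM in Krt17-high, 9.64 in Vim-high and 10.4 in Tnfaip6-high cells. In whole tumour it was at 23.4 CPM in Krt17-high cells against 5.58 CPM (4.21-fold higher), at 11.2 CPM in Vim-high and at 1.57 CPM in Tnfaip6-high cells against 8.61 CPM. The Krt17-high value rests on 20 cells with a UMI, of which 1 held 50 of 160 UMIs, and its log2 ratio of 2.07 became -2.04 without cells with other-type markers.

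Il1a, the alarmin, was called in the Prrx1-positive class alone among those compared. In whole tumour it was at 37.5 CPM in Tff1/Tff2-high, 22.3 in Krt17-high, 20.4 in Vim-high and 17.3 in Tnfaip6-high cells, none called. In CD9hi it was at 44.6, 29.1 and 48.2 CPM in Krt17-high, Vim-high and Tnfaip6-high cells. In Prrx1-positive cells it was at 4.44 CPM against 61.4 CPM, 13.8-fold lower (log2 ratio -3.79, interval -4.03 to -3.56). Of Prrx1-positive cells thinned to 5000 UMIs, 1.38% had Il1a and 12.7% had Csf2, against 11.1% and 46.0% of all CD9hi cells.

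The Prrx1-positive cells also differed in other ways. Their median depth was 29616 UMIs against 20923 in the other CD9hi cells, and the part of depth in the class was not tested. Of them 19.9% were low in the nuclear RNA Malat1, and the 8 fibroblast genes, all detected, summed to 213 CPM against 24.3 CPM. Without the Malat1-low cells, those under 1000 CPM of it, the log2 ratios were -2.92 for Csf2, -3.63 for Il1a, -4.45 for Ccl20 and 1.37 for Csf1. Without cells with other-type markers they were -2.90, -3.58, -4.64 and 1.07, and Cxcl5 went from -1.33 to -0.18.

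**Figure D4:**
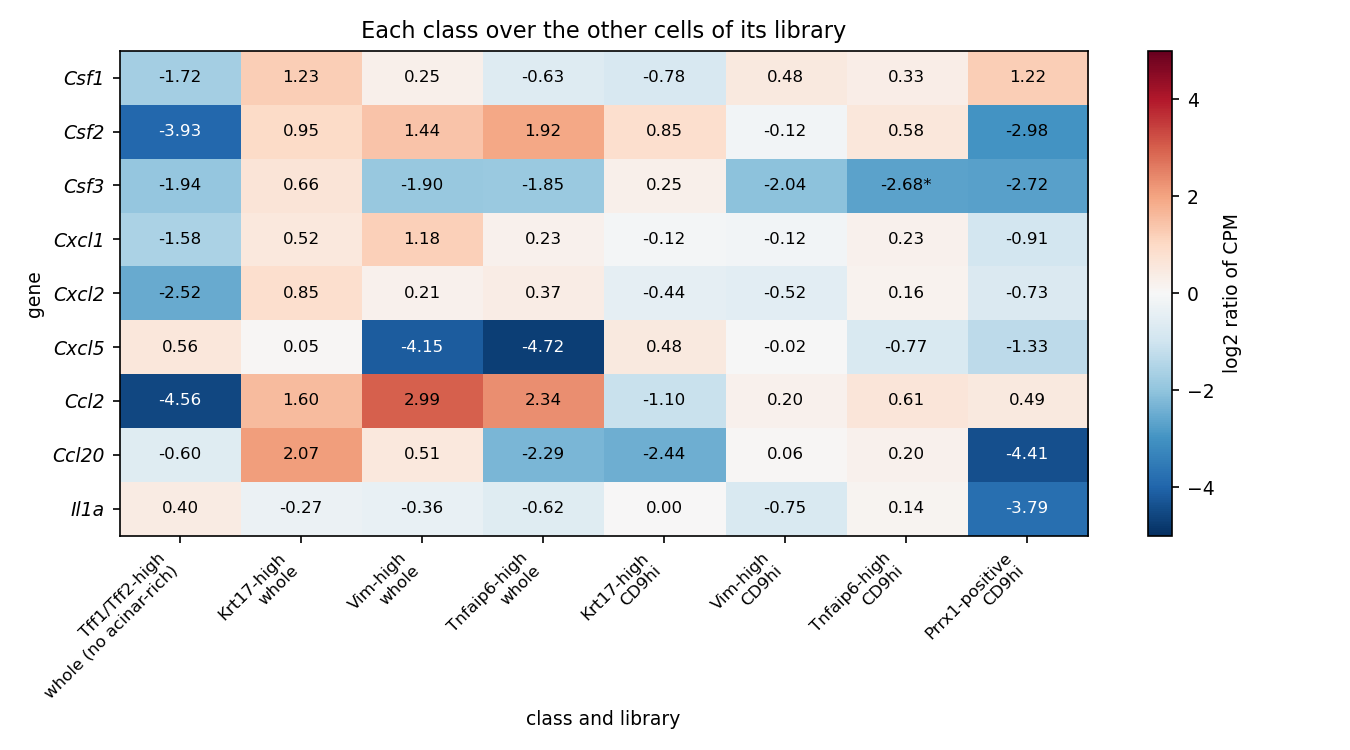
Log2 ratio of CPM for each gene (rows) in each class over the other cells of its library (columns), with red for higher and blue for lower. An asterisk marks a pair below the level measured. The Prrx1-positive column holds Ccl20 at -4.41, Il1a at -3.79 and Csf2 at -2.98 beside Csf1 at 1.22.

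The share of all genes called differed between classes, and the counts for the 9 genes read against it as follows. In whole tumour 3 genes were higher and 0 lower in Krt17-high cells (1.33% and 2.75% of all genes), 3 higher and 2 lower in Vim-high cells (6.65% and 8.73%), and 2 higher and 3 lower in Tnfaip6-high cells (6.43% and 6.34%). In CD9hi 0 were higher and 2 lower in Krt17-high cells (2.45% and 2.28%), 0 higher and 1 lower in Vim-high cells (0.706% and 1.43%), and 0 of 8 higher or lower in Tnfaip6-high cells (1.31% and 1.07%). Within the same class CD9hi over whole tumour, 0 of 8 genes were higher and 2 lower in Vim-high cells (5.72% and 5.1% of all genes). In Tnfaip6-high cells 3 of 8 were higher and 0 lower (3.56% and 3.68%), namely Csf1 at a log2 ratio of 1.56, Ccl20 at 2.56 and Il1a at 1.46. The whole-tumour values of Csf1 and Ccl20 in that class rest on 10 and 4 UMIs.

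Csf2 and Ccl2 also followed Jag1, the Notch ligand named in the study's title. In whole tumour Csf2 was at 540 CPM in Jag1-positive and 115 CPM in Jag1-negative cells, and Ccl2 at 40.4 and 15.2 CPM. These were the 2 higher calls of the 9 genes, with 0 lower, against 2.78% and 1.86% of all genes. Acinar-rich cells made 18.0% of the Jag1-negative and 4.35% of the Jag1-positive cells, and without them the log2 ratios were 2.00 for Csf2 and 1.18 for Ccl2. In CD9hi Csf2 was at 621 and 199 CPM, Ccl2 at 86.1 and 38.8 CPM, and Il1a at 52.7 and 23.1 CPM, 3 higher calls and 0 lower against 0.934% and 0.429% of all genes. Jag1-negative cells of CD9hi were 33.9% Malat1-low, against 2.29% of Jag1-positive cells. Without Malat1-low cells the log2 ratio of Csf2 was 1.14, that of Il1a 0.69 and that of Ccl2 just under 2-fold at 0.998. With the mean of the cells' own CPM Ccl2 was at 0.77.

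Cells were also compared by Cd9 RNA, the 25% of cells with the most against the 25% with the least. In whole tumour Csf2 was at 815 CPM in the Cd9-top and 12.4 CPM in the Cd9-bottom cells, its widest range. The Cd9-bottom cells were 43.1% acinar-rich and 29.8% Malat1-low and the Cd9-top cells 0% and 2.20%, and without acinar-rich cells the log2 ratio of Csf2 was 4.84 instead of 6.03. Of 7 measured genes 5 were higher and 1 lower, against 27% and 7.45% of all genes. Cxcl5 was the lower one, at 21.4 and 88.9 CPM, a log2 ratio of -2.05 that was -3.97 without acinar-rich cells and -0.39 with no cell filter. Il1a stood at 27.4 and 3.72 CPM and Ccl2 at 50.2 and 9.92 CPM, and without acinar-rich cells their log2 ratios went from 2.86 to 1.31 and from 2.33 to 1.98. Without acinar-rich cells Csf3, at 8.12 and 2.10 CPM, changed sign, from a log2 ratio of 1.93 to -0.18, and Cxcl1 went from 1.63 to 0.88. In CD9hi 0 genes were higher and 3 lower in the Cd9-top cells, against 0.742% and 2.28% of all genes. These were Csf1 at 6.57 and 15.9 CPM, Csf3 at 3.89 and 11.1 CPM, and Cxcl5 at 5.95 and 20.6 CPM. Malat1-low cells made 19.4% of the Cd9-top and 8.77% of the Cd9-bottom CD9hi cells, and without them the log2 ratios were -1.16 for Csf1, -1.36 for Csf3 and -1.56 for Cxcl5. The Cxcl5 log2 ratio of -1.79 was -0.53 without cells with other-type markers and -0.99 after thinning.

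The receptors of these ligands were mostly near 0 in the same cells. These cells were kept for 0 Ptprc UMIs, which by itself leaves out leukocytes, so low leukocyte receptors are not read as a result. In the Ptprc-positive CD9hi barcodes Csf1r was at 362 CPM, Csf2rb at 199 CPM and Ccr2 at 56.6 CPM, while Ccr6 had 0 UMIs. Csf1r was at 0.889 CPM in whole-tumour cells and at 0.470 CPM in sorted cells, Cxcr2 at 0.195 and 0.210 CPM, Csf3r at 0.130 and 0.0420 CPM, and Ccr2 at 0.0434 and 0.0336 CPM. Ccr6 had 0 UMIs in whole tumour and 3 in CD9hi. Of the 16 genes on the receptor list 5 reached the level measured, with 1 higher and 0 lower in CD9hi, against 6.32% and 7.36% of all genes, and a median log2 ratio of -0.39. Il1rap, the IL-1 co-receptor, was at 3.62 and 16.6 CPM in the same order (log2 ratio 2.19). Il1r1 was at 8.79 and 5.34 CPM, and Csf2ra, the GM-CSF-binding subunit, at 17.2 and 10.3 CPM, while Csf2rb, its signalling partner, had 1 UMI in whole tumour and 11 in CD9hi. Sdc1, a cell-surface proteoglycan, was at 564 and 695 CPM.

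Other chemokines and cytokines were read from lists chosen with earlier results of these data known, and their counts stand against 6.32% of all genes higher and 7.36% lower in CD9hi. Of 29 other chemokines 8 were measured, with a median log2 ratio of 0.15: Cxcl3, the close relative of Cxcl2, was higher in CD9hi (3.95 and 9.48 CPM, log2 ratio 1.26) and the mucosal Cxcl17 was lower (28.4 and 0.832 CPM, log2 ratio -5.09), with Cxcl10 at 0.74 and Cx3cl1 at -0.40. Of 30 other cytokines 16 were measured, with 3 higher and 4 lower and a median of 0.48. Il11, of the IL-6 family, was higher (3.19 and 23.2 CPM, log2 ratio 2.86), as were Tgfb1 (1.25) and Tgfb2 (1.17). Ltb, encoding lymphotoxin beta, was lower (47.6 and 5.81 CPM, log2 ratio -3.03), as were Il18 (-1.96), Il23a (-1.36) and Ctf1 (-1.22).

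NF-kB pathway genes, their upstream receptors, decay genes and immediate early genes were counted against the same 6.32% and 7.36% of all genes. Of 20 NF-kB genes 18 were measured, with 0 higher and 1 lower and a median log2 ratio of 0.17. Icam1, an adhesion molecule, was the lower one (36.2 and 16.4 CPM, log2 ratio -1.14), and Nfkb1 at 0.86, Nfkb2 at 0.74 and Nfkbiz at -0.75 were the next most different. Of 16 upstream receptors and adaptors 13 were measured, with 0 higher and 1 lower, the RNA sensor Tlr3 at -1.58, and a median of -0.06. All 8 genes of AU-rich decay were measured, 0 were called, and their median was 0.30: Zfp36 was at 313 and 162 CPM (log2 ratio -0.95) and Zfp36l2 at 133 and 223 CPM (0.74). Of 14 immediate early and dissociation genes, 1 was higher (Myc at 1.46) and 2 lower (Btg2 at -1.42, Ier2 at -1.06), with a median of -0.24. Fos, a transcript raised by tissue dissociation, was at 1631 and 1015 CPM, and its part in the levels of the cytokine genes was not tested.

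Some genes shared the profile of single members over the 8 combinations of library and class with at least 50 cells. These groups share cells, library and depth, so the correlations only describe the profile, and 9745 genes were searched. The Tff1/Tff2-high group used here kept its acinar-rich cells. Csf2 was most like Odaph (Pearson r = 0.996), Nt5e (0.99) and Pmepa1 (0.99). Cxcl5 was most like Ccdc141 (0.97), Plekhs1 (0.97) and Sftpd (0.96), Il1a like Ippk (0.98), Il4ra (0.94) and Alcam (0.92), and Csf1 like Haus8 (0.98), Rcc1 (0.97) and Rrp15 (0.97). Ccl20 had the weakest likeness, with Gclm at 0.87 and Arhgef28 at 0.84. For Csf3 the nearest was Alkbh1 (0.96), for Cxcl1 Ubb-ps (0.98), for Cxcl2 Trappc13 (0.99) and for Ccl2 Zdhhc16 (0.99).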

How the data were processed

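The deposited files are 10x count matrices of whole-number UMI counts per gene and cell, not normalized. They were made with Cell Ranger 7.0.0 against GRCm39 per the submitters' processing notes, and the matrix headers name Cell Ranger 6.1.2. Barcodes were kept from 500 genes and 1000 UMIs upward, with mitochondrial UMIs up to 20% (2550 of 3082 in whole tumour, 5092 of 5500 in CD9hi), and 13 and 30 with a Ptprc UMI were set aside. Doublets were left in, and their removal was an alternative: scores by Scrublet in scanpy 1.11.5 took out the 63 and 224 highest, because its automatic threshold marked 0.549% and 0.0196%. UMIs were summed over groups and divided by the group's total, with 0.5 UMIs added for log2 ratios. Poisson intervals were used for CPM, Clopper-Pearson intervals for shares, and conditional binomial intervals for ratios. PCR and cell-to-cell variation are not in them. The calculation was tested on simulated counts. Thinning left out 163 and 110 cells. Python 3.11.15, numpy 2.4.6, scipy 1.17.1 and pandas 2.3.3 were used. The 9 genes and all lists were chosen with earlier results of these data known. Named are all 9 genes, up to 3 genes most alike in profile, and from each list the counts past 2-fold with the highest and lowest ratios. Marker lists of other cell types, summed over all cells in whole tumour and CD9hi, gave 127 and 40.7 CPM for macrophages, 4.79 and 1.27 CPM for neutrophils, 0.629 and 1.20 CPM for lymphocytes, 20.6 and 79.9 CPM for fibroblasts, 1.30 and 11.3 CPM for endothelium, and 1155 and 244 CPM for islet cells. Some items, among them 1 allele of the model, are not reported here.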

Additional observations from a re-analysis of the deposited data

Results flagged for a closer look

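In Krt17-high cells 2 genes lay on opposite sides of the other cells in the 2 libraries. Ccl2 had a log2 ratio of 1.596 in whole tumour and -1.102 in CD9hi, and Ccl20 one of 2.073 in whole tumour and -2.443 in CD9hi. With the 90th percentile as the limit of the class the Ccl2 ratios were 0.27 and -0.65, both under 2-fold. Without cells with other-type markers the whole-tumour log2 ratio of Ccl20 was -2.04, on the same side as its CD9hi value. The Ccl20 values of Krt17-high cells rest on 160 UMIs in whole tumour and 11 in CD9hi. Neither difference between the libraries was tested, since each library is a single sample.

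The Ptprc-positive barcodes, which no main comparison used, also held the genes. An alternative that included them kept all 28 calls of a gene in a class. In the 13 of whole tumour Cxcl1 was at 33.94 CPM, Cxcl2 at 543.0 CPM and Cxcl5 at 118.8 CPM, each above 3 UMIs' worth, and 89 of the 96 Cxcl2 UMIs were from 1 barcode. In the 30 of CD9hi Csf1 was at 27.46 CPM, Csf2 at 250.6 CPM, Cxcl1 at 580.2 CPM, Cxcl2 at 2915 CPM, Ccl2 at 164.8 CPM and Il1a at 257.5 CPM. Macrophage genes summed to 24409 CPM in these CD9hi barcodes and to 628 CPM in those of whole tumour.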

How the results depend on the processing

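Of 44 ratios past 2-fold, 598 of 601 values under the alternatives kept their direction, 570 stayed past 2-fold in that direction, and 28 ratios did so under every alternative run. The 3 that changed sign were Ccl20 in Tff1/Tff2-high cells (0.6251) and in Krt17-high cells (-2.04) of whole tumour without cells with other-type markers, and Csf3 between the Cd9-top and Cd9-bottom cells of whole tumour without acinar-rich cells (-0.1791). Of the 28 calls of a gene in a class, 23 were shared without cells with other-type markers and 12 with a mean of at least 50 CPM. Genes called higher in CD9hi went from 1 to 3 without cells with other-type markers, 2 after thinning to 5000 UMIs and 4 at 1.5-fold, and genes called lower from 1 to 2 at 1.5-fold. In whole tumour the 8 higher pairs became 5 with a mean of at least 50 CPM, 2 with the 90th percentile and 5 in cells of exactly 1 class, and the 11 lower pairs became 5 with a mean of at least 50 CPM and 5 with the 90th percentile. In CD9hi the higher pair became 3 at 1.5-fold, 0 with a mean of at least 50 CPM, 6 with the 60th percentile and 2 in cells of exactly 1 class, and the 8 lower pairs became 13 at 1.5-fold and 2 with a mean of at least 50 CPM. The median library log2 ratio of all measured genes moved from 0.13 to 0.01 without cells with other-type markers and to 0.02 without acinar-rich cells. The counts of genes and pairs called under these alternatives have no share of all genes called in the same setting beside them. A rise or fall in them is therefore not read as particular to these genes. A higher mean or fold changes which pairs can be called, and for the other settings the cause was not tested. The alternatives without acinar-rich cells, without cells with macrophage genes other than Cd14 and without each gene's top cell were chosen after seeing the data. No paired analysis was possible because each group is 1 library.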
